A study of Mus musculus with 8 samples.

Results

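The transcripts of 10 circadian clock genes were followed in liver macrophages from control mice and from mice given carbon tetrachloride (CCl4), a solvent toxic to hepatocytes. The genes were taken by symbol: Arntl (the gene of BMAL1), Clock, Nr1d1 and Nr1d2 (the genes of REV-ERB alpha and beta), Per1, Per2, Per3, Cry1, Dbp and Tef. All 10 were found among the 35906 genes to which transcript counts could be summed, and all 10 were also among the 15212 genes that passed the filter on low counts. Both groups were wild-type BALB/c mice, with no engineered allele named: 4 libraries came from mice given the vehicle control and 4 from mice given CCl4. The cells had been sorted as positive for CD45 and F4/80 and negative for CD31. Dose and duration of CCl4, the age of the mice and the hour at which livers were collected were not given in the sources used here. Labels do not tie each library to its own mouse, so p-values reflect how far these libraries differ among themselves, part of which may be technical.

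The mammalian clock is a transcriptional feedback loop. BMAL1 and CLOCK pair and bind E-box elements to switch on the Per, Cry, Nr1d and PAR bZIP (Dbp, Tef, Hlf) genes. PER and CRY proteins then enter the nucleus and inhibit that pair, while the REV-ERB proteins repress Arntl through the RORE element that the ROR activators also use. In most tissues Arntl therefore peaks at nearly the opposite time of day from Nr1d1 and Dbp, and in macrophages REV-ERB proteins are also known to repress inflammatory genes. A set of livers collected at 1 hour of the day gives 1 reading of such a cycle, not its amplitude or phase, and whether the groups were collected at the same hour was not given in the sources used here.

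Libraries held 19489104 to 26196063 estimated counts. Levels are CPM, counts scaled to library size, after TMM correction for library composition. Means carry the SD over the 4 libraries of a group, and changes are CCl4 over vehicle. The macrophage marker list (6 genes, among them Adgre1, which encodes F4/80) summed to 22886 to 26810 CPM of the library total in vehicle and 46846 to 54038 CPM in CCl4, with 1 of 6 genes higher. The higher gene was Lyz2, whose mean went from 16441 CPM (vehicle) to 47034 CPM (CCl4). Adgre1 averaged 1272 CPM (vehicle) against 1187 CPM (CCl4), and it was among the 5 that did not pass. The mix of other markers differed between groups. Among 8 Kupffer cell markers 7 fell, and their sum was 23101 to 32427 CPM in vehicle and 6364 to 11319 CPM in CCl4. Of 8 markers of monocyte-derived macrophages 7 rose, from a sum of 266 to 617 CPM to one of 6559 to 12600 CPM. Neutrophil markers rose in 5 of 8 (29.4 to 74.6 CPM against 71.4 to 231 CPM), cholangiocyte and mesothelial markers in 5 of 8 (6.71 to 29.1 CPM against 57.0 to 137 CPM), and endothelial markers fell in 6 of 8 (473 to 792 CPM against 189 to 233 CPM). Of 8 stellate cell markers 3 rose and 1 fell (118 to 505 CPM against 148 to 289 CPM). No marker was at 0 in every library. Mitochondrial genes took 1.91% to 5.31% of counts in vehicle and 0.76% to 1.16% in CCl4. The part of these shifts in the clock gene values was not tested, and in sorted bulk RNA fewer cells of a type and less RNA per cell cannot be told apart. Libraries vehicle 2 and CCl4 4 stood apart from the rest: they had the lowest totals, the most genes with at least 1 count (22971 and 23808 against 19228 to 21614), and the most counts on 1969 chemosensory receptor genes (3132 and 3072 CPM against 611 to 1553). The clock gene values that moved most without them are given both ways.

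No clock gene of the 10 passed the test between CCl4 and vehicle (edgeR quasi-likelihood test, adjusted p under 0.05): 0 were higher and 0 lower, where 15.2% of all tested genes passed, 8.93% upward and 6.26% downward. At an unadjusted p under 0.05, 4 of the 10 were counted (Cry1, Per1, Nr1d2 and Arntl), against 28.2% of all genes, and DESeq2 called 1 (Cry1), where it called 19.9% of all genes. The fitted log2 fold change was positive for 6 genes and negative for 4, with a median of 0.28 beside -0.03 over all tested genes. For 6 of them (Arntl, Clock, Nr1d1, Nr1d2, Dbp and Tef) the 95% interval lay within a 2-fold change in either direction, so changes larger than that lay outside the interval. For Per1, Per2, Per3 and Cry1 it did not. With vehicle 2 and CCl4 4 left out, edgeR again called 0 of the 10. The 4 CCl4 libraries did not overlap the 4 vehicle libraries for 3 genes (Arntl, Nr1d2 and Cry1), a pattern seen in 22.5% of all tested genes. Cipc, Nfil3, Rora and Bhlhe40, which act on the same loops, rose, as described further on.

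**Figure D1:**
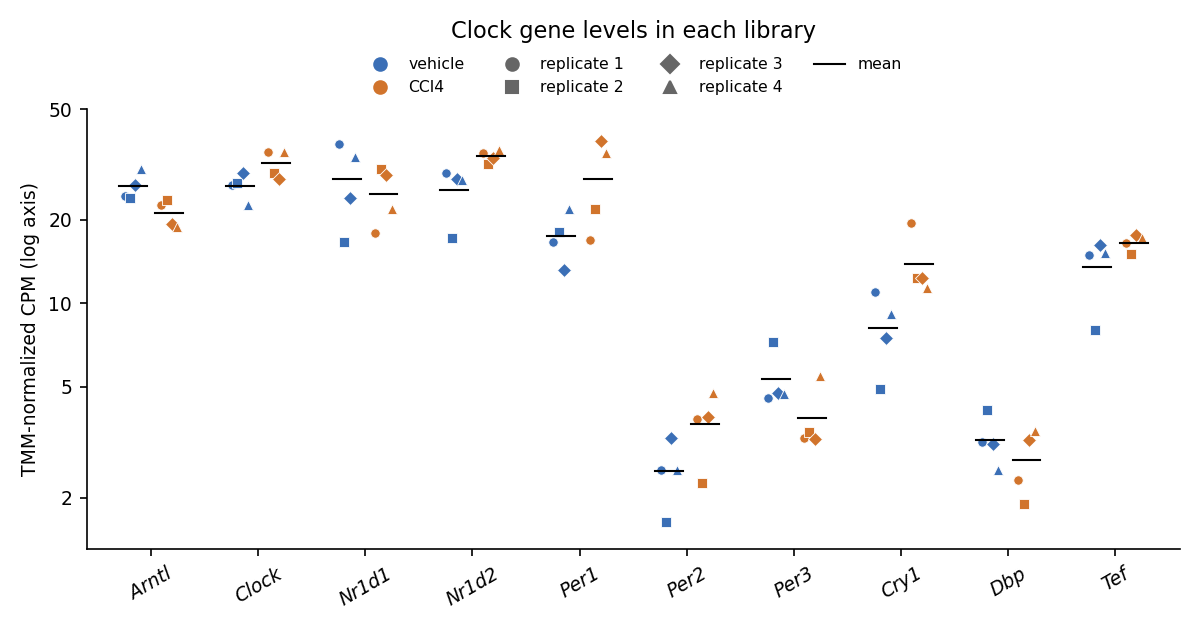
Level of each clock gene in every library, as TMM-normalized CPM on a log axis, with vehicle in blue, CCl4 in orange, a symbol per replicate number and a bar at the group mean. The 2 groups are apart for Arntl, Nr1d2 and Cry1, and the square of vehicle 2 lies lowest of its group for Arntl, Nr1d1, Nr1d2, Per2, Cry1 and Tef and highest for Per3 and Dbp.

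Promoter sequences show which clock elements sit beside these genes. RefSeq promoter windows of build GRCm38.p6, reaching 250 bases before to 50 after each gene's start, were available for 9 of the 10 genes in 14 windows (Per2 had no entry). Elements were searched on both strands by exact letters: the E-box CACGTG, the E-prime box CACGTT, the D-box TTATGTAA or TTACGTAA bound by DBP and TEF, the RORE TAGGTCA or TGGGTCA and the cAMP response element TGACGTCA. The E-box and E-prime box differ in their last letter, so no run of bases counts as both. Per1, Cry1 and Tef held an E-box, which 7.15% of 32851 promoters hold. Nr1d1 and Cry1 held an E-prime box (4.68% of promoters), Per3 a D-box (1.06%) and Arntl a RORE (6.45%). The cAMP element (1.79% of promoters) was in none of the 14 windows. Other loop genes were searched as well: Nfil3 held a RORE, Cipc and Ciart held E-boxes, Cry2 an E-prime box and Hlf a cAMP element. Npas2, Rora and Bhlhe40 gave no match. Of these genes, Nfil3, Cipc, Rora and Bhlhe40 rose, and Ciart, Cry2, Hlf and Npas2 did not pass. A match describes letters only. Distances are counted from the RefSeq start of the window, which can differ from the gene bounds printed further on, taken from another annotation. The Per1 and Tef E-boxes, for instance, lie inside those bounds. The stretches printed here are 30 bases long, on the gene's own strand, 5′ to 3′, with the element in capitals, for the clock genes with a match and for Nfil3 and Cipc, whose levels rose. The Arntl RORE starts 31 bases after the RefSeq start of its window (chr7:113207530-113207559, plus strand). The E-box of Per1 (chr11:69098771-69098800, plus strand) lies 166 bases before the start used, and that of Cry1 (chr10:85185097-85185126, minus strand) 60 before. An E-box of Tef (chr15:81802534-81802563, plus strand) lies 127 before and that of Cipc (chr12:86947314-86947343, plus strand) 17 before. Tef also has an E-box 138 before another start (chr15:81811264-81811293, plus strand), and Cry1 its E-prime box 79 before (chr10:85185116-85185145, minus strand). Those stretches are not printed. Nr1d1 has its E-prime box 28 before (chr11:98775388-98775417, minus strand), read on the opposite strand, and Per3 has D-boxes 205 and 158 before its start (chr4:151044852-151044881 and chr4:151044805-151044834, minus strand). The Nfil3 RORE, 12 bases before its start (chr13:52981033-52981062, minus strand), is also read on the opposite strand.
Arntl RORE: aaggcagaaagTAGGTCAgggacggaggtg
Nfil3 RORE: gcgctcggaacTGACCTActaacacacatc
Nr1d1 E-prime box: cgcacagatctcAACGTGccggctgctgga
Per1 E-box: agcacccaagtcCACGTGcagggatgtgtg
Cry1 E-box: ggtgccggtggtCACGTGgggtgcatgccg
Tef E-box: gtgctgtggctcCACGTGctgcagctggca
Cipc E-box: gccgagccgggcCACGTGactggcgaaagc
Per3 D-box, outer: cgacccgcgcgTTATGTAAggtactcgggg
Per3 D-box, inner: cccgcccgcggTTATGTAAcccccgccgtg

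Among the activators, Arntl (chromosome 7, 113207465 to 113314126, plus strand, mm10) encodes BMAL1, the partner without which the loop stops. Its level was 24.35, 23.96, 26.62 and 30.45 CPM in vehicle 1 to 4 and 22.53, 23.62, 19.33 and 18.83 CPM in CCl4 1 to 4. Every CCl4 library lay below every vehicle library, although CCl4 2 and vehicle 2 differed by little. The means were 26.35 ± 2.98 and 21.08 ± 2.36 CPM, a log2 fold change of -0.32 (SE 0.14, 95% interval -0.63 to -0.01) that missed the threshold (edgeR adjusted p = 0.165). Clock (chromosome 5, 76209868 to 76304792, minus strand) encodes its DNA-binding partner, and its fitted change had the other sign. It was at 26.55, 27.08, 29.51 and 22.65 CPM in vehicle and 35.11, 29.53, 27.93 and 35.01 CPM in CCl4. CCl4 3 fell inside the vehicle range, so the groups overlapped, and the means of 26.45 ± 2.84 and 31.89 ± 3.71 CPM gave a log2 change of 0.27 (SE 0.14, edgeR adjusted p = 0.243).

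The REV-ERB genes repress Arntl and stand in for the opposite limb of the cycle. Nr1d1 (chromosome 11, 98767932 to 98775333, minus strand) spread widely within both groups, at 37.48, 16.58, 24.01 and 33.57 CPM in vehicle and 17.85, 30.40, 29.06 and 21.88 CPM in CCl4. All 4 CCl4 libraries fell inside the vehicle range. The means were 27.91 ± 9.44 and 24.80 ± 5.95 CPM, with a log2 fold change of -0.17 (SE 0.25, 95% interval -0.73 to 0.39, edgeR adjusted p = 0.723), which was -0.30 without vehicle 2 and CCl4 4 and turned sign without vehicle 1 (0.02). Nr1d1 ends tail to tail with Thra, the thyroid hormone receptor alpha gene, and its main transcript shares 263 of 2721 bases (9.7%) with Thra exons on the opposite strand. No strand-marking step is named for these libraries, and without one reads there cannot be told apart. Thra itself was at 8.91 ± 1.04 CPM in vehicle and 6.44 ± 1.36 CPM in CCl4, a log2 fold change of -0.47 (edgeR adjusted p = 0.163).

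Nr1d2 (chromosome 14, 18204054 to 18239127, minus strand), the paralogue of Nr1d1, had a narrower range in CCl4. It read 29.43, 17.18, 27.96 and 27.85 CPM in vehicle and 34.69, 31.66, 33.41 and 35.62 CPM in CCl4. Every CCl4 library exceeded every vehicle library, and vehicle 2 lay far below the other vehicle libraries. The means of 25.61 ± 5.66 and 33.85 ± 1.72 CPM gave a log2 change of 0.40 (SE 0.17, 95% interval 0.03 to 0.78), which did not pass (edgeR adjusted p = 0.149), and it was 0.22 without vehicle 2 and CCl4 4.

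The inhibitors PER and CRY close the main loop, and the largest fitted upward differences of the 10 were here. Cry1 (chromosome 10, 85131700 to 85185064, minus strand), which encodes a potent repressor of the BMAL1 and CLOCK pair, was at 10.97, 4.92, 7.52 and 9.16 CPM in vehicle and 19.47, 12.34, 12.36 and 11.32 CPM in CCl4. The groups did not overlap, CCl4 1 was far above the other CCl4 libraries, and vehicle 2 was lowest. Means were 8.14 ± 2.57 and 13.87 ± 3.76 CPM, a fold of 1.70 and a log2 fold change of 0.77 (SE 0.26, 95% interval 0.20 to 1.34), short of the threshold (edgeR adjusted p = 0.0714). It passed with DESeq2 (log2 fold change 0.78, adjusted p = 0.0373), without the filter on low counts (0.79, edgeR adjusted p = 0.0458) and without vehicle 1 (0.96, edgeR adjusted p = 0.0447).

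Per1 (chromosome 11, 69095217 to 69109960, plus strand) is the Per gene that also answers directly to glucocorticoid and cAMP signals. It was at 16.66, 18.07, 13.13 and 21.81 CPM in vehicle and 16.84, 21.81, 38.34 and 34.77 CPM in CCl4. CCl4 1 and CCl4 2 lay within the vehicle range and CCl4 3 and CCl4 4 well above it, so the spread in CCl4 was wide. The means were 17.42 ± 3.59 and 27.94 ± 10.26 CPM, with a log2 fold change of 0.68 (SE 0.26, 95% interval 0.12 to 1.24, edgeR adjusted p = 0.102). Without CCl4 1 it passed (0.88, edgeR adjusted p = 0.039), as it did without the low-count filter (0.71, 0.0444) and on protein-coding transcripts only (0.96, 0.0207), a count under which 17% of all genes passed. Kallisto divided the Per1 reads between transcripts that start at different places. The one that starts farthest upstream (ENSMUST00000101004) received 2.26, 0.49, 4.0 and 5.25 CPM of the library in vehicle and 8.31, 7.41, 11.62 and 14.61 CPM in CCl4. The transcript ENSMUST00000021271 received 9.36, 12.52, 4.84 and 12.81 CPM in vehicle and 0, 12.09, 16.35 and 9.26 CPM in CCl4. Another coding transcript, ENSMUST00000166748, received 0.02, 0.03, 3.21 and 0.28 CPM in vehicle and 6.98, 0.05, 0 and 10.73 CPM in CCl4. It thus held counts in CCl4 1, where ENSMUST00000021271 had 0. The groups were apart for the upstream transcript and overlapped for the others. These transcripts were picked after their values were seen, are given without a test, and depend on how reads shared between them were divided.

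Per2 (chromosome 1, 91415982 to 91459324, minus strand), a core repressor in most tissues, was the lowest of the 10 per unit of length. It was at 2.52, 1.63, 3.28 and 2.52 CPM in vehicle and 3.84, 2.25, 3.89 and 4.76 CPM in CCl4, with CCl4 2 inside the vehicle range. The log2 fold change was 0.56 (SE 0.33, 95% interval -0.15 to 1.27, edgeR adjusted p = 0.292), and without vehicle 2 and CCl4 4 it was 0.25 (edgeR adjusted p = 0.609). Per3 (chromosome 4, 151003652 to 151044665, minus strand), a Per gene that the loop can run without, was at 4.57, 7.25, 4.75 and 4.72 CPM in vehicle and 3.28, 3.43, 3.26 and 5.47 CPM in CCl4. Vehicle 2 and CCl4 4, the libraries that stood apart, were the highest of their groups, and CCl4 4 lay among the vehicle values. On the log2 scale the change was -0.46 (SE 0.27, edgeR adjusted p = 0.296). Only 19% of the Per3 counts fell on protein-coding transcripts, beside 47.8% on transcripts annotated as retained introns, and on coding transcripts alone the log2 fold change was 0.77 (edgeR adjusted p = 0.706). Those coding counts were those of transcript ENSMUST00000103204. It received 5.0, 12.9, 0 and 43.4 estimated counts in vehicle and 0, 53.7, 29.7 and 17.9 in CCl4, so the groups overlapped. Over all alternatives the Per3 estimate ran from -1.25 to 0.77 and never passed, so no direction can be given.

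DBP and TEF are PAR bZIP activators that carry the rhythm to D-box genes, and Dbp is usually among the genes with the deepest daily swing. Dbp (chromosome 7, 45705088 to 45710203, plus strand) was at 3.16, 4.13, 3.12 and 2.52 CPM in vehicle and 2.31, 1.89, 3.21 and 3.47 CPM in CCl4. The groups overlapped, and the means of 3.24 ± 0.67 and 2.72 ± 0.74 CPM gave a log2 change of -0.25 (SE 0.30, 95% interval -0.91 to 0.42, edgeR adjusted p = 0.659). Its most abundant transcript shares 539 of 1837 bases (29.3%) with exons of Sphk2 on the opposite strand. Sphk2, a sphingosine kinase gene, was counted at 23.64 ± 6.93 CPM in vehicle and 32.33 ± 4.99 CPM in CCl4. Tef (chromosome 15, 81802421 to 81826863, plus strand) was at 14.90, 8.03, 16.18 and 15.13 CPM in vehicle and 16.42, 15.02, 17.56 and 17.12 CPM in CCl4. Apart from vehicle 2 the groups lay close together. Its log2 fold change was 0.28 (SE 0.21, edgeR adjusted p = 0.419) with all libraries and 0.08 without vehicle 2 and CCl4 4.

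**Figure D2:**
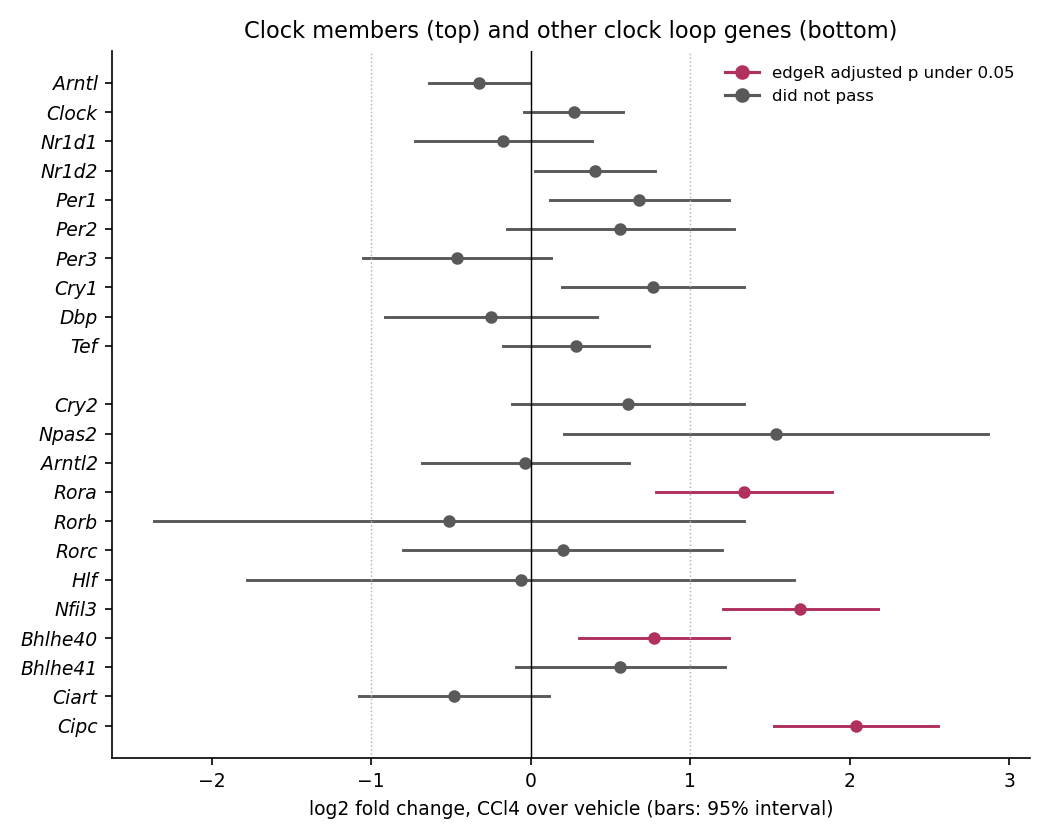
Log2 fold change, CCl4 over vehicle, from the edgeR fit with its 95% interval (bars), for the 10 clock genes at the top and 12 other loop genes at the bottom, with dotted lines at a 2-fold change. Estimates for the 10 run from -0.46 (Per3) to 0.77 (Cry1), all in grey because none passed, while Rora, Nfil3, Bhlhe40 and Cipc passed.

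The deposited FPKM table gave another view of the same libraries, and it separated other members. There, no clock gene passed limma's test (pseudocount 0.1), where 2.84% of genes did. The groups were apart for Clock, Per3 and Dbp, a pattern found in 10.2% of genes. Both shares are over 24443 genes with a mean FPKM above 0. That set had no filter on low counts, so these shares are not like those over the 15212 genes tested in counts. Dbp was at 0.214, 0.211, 0.185 and 0.183 FPKM in vehicle and 0.118, 0.083, 0.104 and 0.095 FPKM in CCl4. Every CCl4 library lay far under the vehicle libraries, with means of 0.198 ± 0.016 and 0.100 ± 0.015 FPKM, and a log2(FPKM + 0.1) difference of -0.58 (limma adjusted p = 0.151). In the kallisto tables the most abundant Dbp transcript alone gave a log2 fold change of -0.88 (edgeR adjusted p = 0.116), beside -0.25 for the whole gene, of which 29% of counts were retained-intron transcripts. Per3 was at 0.292 ± 0.049 FPKM in vehicle and 0.134 ± 0.052 FPKM in CCl4 (limma adjusted p = 0.164). For Per2 the sign turned, with -0.17 in FPKM beside 0.56 in counts. No account of how the FPKM were computed was at hand. For Dbp they closely followed the unscaled estimated counts of its most abundant transcript. Its vehicle counts were 58.0, 58.3, 50.1, 49.4, and its CCl4 counts 32.3, 22.5, 28.1, 25.9. Clock FPKM (vehicle 0.169, 0.072, 0.198, 0.173) likewise ran with transcript ENSMUST00000075159 (212.2, 90.4, 248.9, 215.9 counts). Per2 FPKM did not run with its main transcript: vehicle 2 had the highest FPKM (0.171) but the fewest counts (34.4). What caused the differences was not tested.

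**Figure D3:**
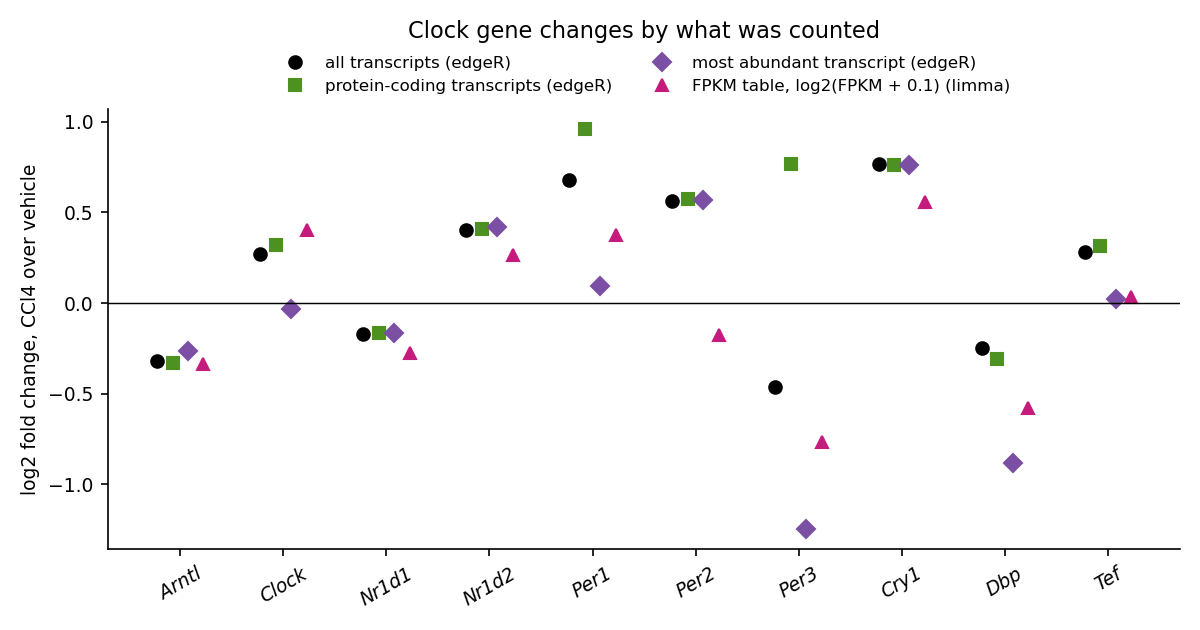
Fold change of each clock gene on a log2 scale, for all transcripts, protein-coding transcripts, the most abundant transcript and the FPKM table. Clock, Per2 and Per3 change sign with the way of counting, Dbp runs from -0.25 for the whole gene to -0.88 for its most abundant transcript, and Arntl and Cry1 keep their sign throughout.

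Levels of different genes were ranked per length, as TPM (transcript abundance scaled to a fixed total) over all 8 libraries. Nr1d1 was highest at 13.92 ± 4.37 TPM, then Arntl at 11.48 ± 2.51, Nr1d2 at 10.30 ± 1.94, Per1 at 7.62 ± 2.89, Clock at 7.55 ± 1.60, Tef at 5.08 ± 1.11, Cry1 at 5.06 ± 1.89, Dbp at 3.24 ± 1.03, Per3 at 1.80 ± 0.67 and Per2 at 0.74 ± 0.19 TPM. Neighbours were often within their spread: Nr1d1 exceeded Arntl in 6 of 8 libraries, Arntl exceeded Nr1d2 in 5, and Per1 exceeded Clock in 3. Clock was above Tef, Dbp above Per3 and Per3 above Per2 in all 8. The order of the group means also differed: Arntl was above Nr1d2 in vehicle (12.92 and 9.15 TPM) and below it in CCl4 (10.05 and 11.45). Mean Clock was above Per1 in vehicle (7.01 and 6.07) and below it in CCl4 (8.10 and 9.16). Mean Tef was above Cry1 in vehicle (4.79 and 3.74) and below it in CCl4 (5.38 and 6.39). Single libraries did not all keep these orders. Arntl was above Nr1d2 in CCl4 2 (11.65 and 10.32). Clock was above Per1 in CCl4 1 (8.08 and 5.32) and CCl4 2 (8.41 and 7.62) and below it in vehicle 4 (6.12 and 8.19). Tef was above Cry1 in CCl4 3 (4.97 and 4.75) and CCl4 4 (6.53 and 6.41). The deposited FPKM also put Nr1d1 first and Per2 last, but put Clock at rank 8 and Arntl at rank 4.

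The relation of the 2 limbs was read from how libraries of the same group deviated from their group mean. Differences in hour between the groups cannot be read from such deviations. Over 8 libraries Pearson's r with Arntl was 0.25 for Nr1d1 and 0.24 for Nr1d2 (exact permutation within groups, two-sided, adjusted p = 0.6701 for both). These signs rested on vehicle 2: without it r was -0.04 for Nr1d1 and -0.66 for Nr1d2 (exact permutation adjusted p = 0.9583 and 0.4375), and without vehicle 2 and CCl4 4 it was -0.17 and -0.53 (0.875 and 0.65). Without vehicle 4 and CCl4 2, which lay farthest out in Arntl, r was -0.29 and 0.27. No direction can be given for either gene. The ratio of Nr1d1 to Arntl, as a log2 difference in CPM, was 0.62, -0.53, -0.15 and 0.14 in vehicle and -0.34, 0.36, 0.59 and 0.22 in CCl4. These ratios are not corrected for length, so they compare libraries and not the levels of the genes. Nr1d2 to Arntl read 0.27, -0.48, 0.07 and -0.13 in vehicle and 0.62, 0.42, 0.79 and 0.92 in CCl4. Cry1 to Arntl read -1.15, -2.28, -1.82 and -1.73 in vehicle and -0.21, -0.94, -0.65 and -0.73 in CCl4. The groups were apart for both of the last ratios and overlapped for the first. These ratios combine values already given and are shown without a test.

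Dbp was the one member of the 9 paired with Arntl whose deviations ran against it past the threshold. Pearson's r was -0.93 (exact permutation p = 0.0052, adjusted over the 9 pairs 0.0469) and Spearman's rho was -0.98 (exact permutation p = 0.0035, adjusted 0.0312). The smallest p that the permutations can give is 0.0017. Without vehicle 4 and CCl4 2, which lay farthest out in Arntl, r was -0.89, and without the libraries that stood apart it was -0.90. Both then had an exact permutation p of 0.0278, which the 9 pairs adjust to 0.25. The relation was not found on other scales: r was -0.42 with counts scaled by library size alone (exact permutation p = 0.3507) and -0.23 in FPKM (exact permutation p = 0.5868). Those scales are unlike the main one. Library size alone leaves composition uncorrected. Arntl FPKM (vehicle 0.686, 0.662, 0.983, 1.154) ran with the unscaled counts of its most abundant transcript (313.8, 305.4, 449.5, 527.4), as Dbp FPKM did. Dbp rested on few reads, with 47.8 to 88.7 estimated counts in a library. The other pairs had r between -0.54 (Per3) and 0.41 (Cry1), each with an exact permutation p adjusted to 0.6701.

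**Figure D4:**
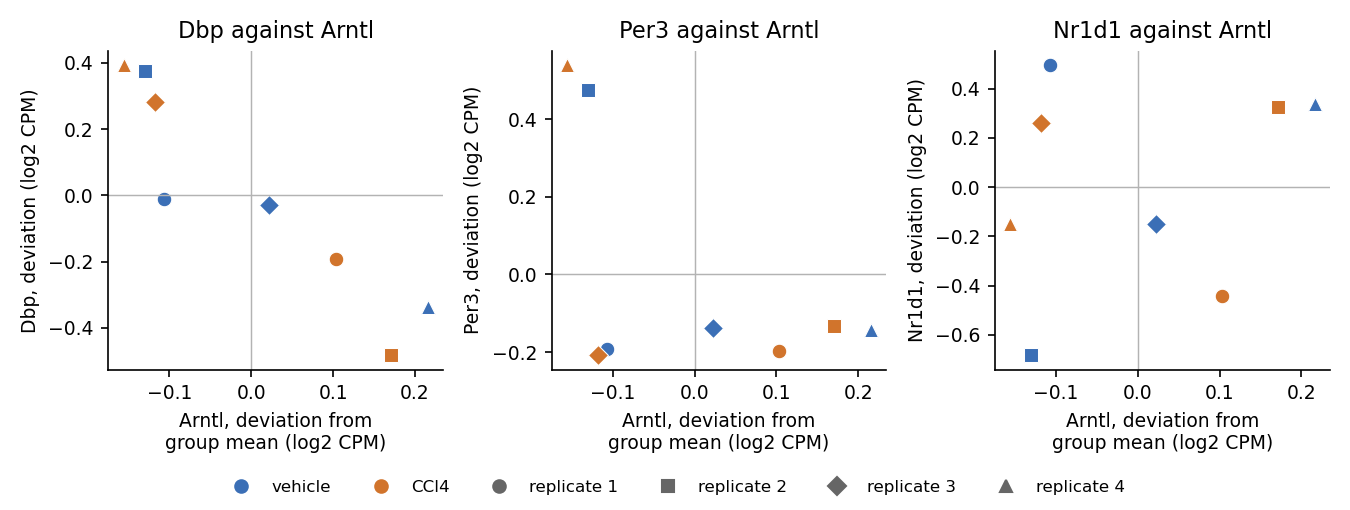
Deviation of clock genes from their group mean in each library, in log2 CPM, against that of Arntl, with vehicle in blue and CCl4 in orange. Dbp falls as Arntl rises (r = -0.93), Per3 is high in vehicle 2 and CCl4 4 (r = -0.54), and Nr1d1 is scattered (r = 0.25).

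Of 12 other genes of the loops that were tested, 4 rose and 0 fell, with a median log2 fold change of 0.59, beside 8.93% and 6.26% of all genes. Cipc, which encodes an inhibitor of CLOCK, was at 14.74, 6.87, 11.59 and 13.40 CPM in vehicle and 54.86, 37.54, 56.77 and 42.76 CPM in CCl4. The groups were far apart, and the fold was 4.11 (log2 2.04, SE 0.23, edgeR adjusted p = 0.000194). In the FPKM table the Cipc difference kept its sign without passing (log2 1.28, limma adjusted p = 0.113). Nfil3, the bZIP repressor that competes with DBP and TEF for D-boxes, was at 35.84, 23.08, 15.86 and 31.09 CPM in vehicle and 83.40, 81.23, 93.61 and 83.47 CPM in CCl4. The groups were again far apart, with a fold of 3.23 (log2 1.69, SE 0.22, edgeR adjusted p = 0.000415). Per length, Nfil3 was at 18.18 ± 6.05 TPM and its opponent Dbp at 3.28 TPM in vehicle, and at 57.64 ± 4.32 and 3.20 TPM in CCl4.

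Rora, the activator that shares the RORE with the REV-ERB proteins, was at 17.74, 21.50, 8.98 and 14.01 CPM in vehicle and 44.87, 46.85, 35.85 and 29.35 CPM in CCl4. The groups did not overlap, and the fold was 2.52 (log2 1.34, SE 0.25, edgeR adjusted p = 0.00399), while Arntl, a RORE gene, did not pass in either direction. Bhlhe40, the E-box repressor DEC1, was at 299.94, 150.10, 221.66 and 265.65 CPM in vehicle and 419.25, 435.69, 437.69 and 309.49 CPM in CCl4. It rose by a log2 of 0.77 (SE 0.21, edgeR adjusted p = 0.0316), and the call ended without vehicle 3 (edgeR adjusted p = 0.091), vehicle 4 (0.0552), CCl4 1 (0.0711), CCl4 2 (0.0784) or CCl4 3 (0.0683), and with length-scaled TPM counts (0.0538). Cry2, the paralogue of Cry1, was at 3.80 ± 1.52 and 5.83 ± 1.15 CPM (log2 0.61, edgeR adjusted p = 0.257). Npas2, a stand-in for Clock, was at 0.29 ± 0.11 and 0.86 ± 0.60 CPM (edgeR adjusted p = 0.118), and Ciart, a repressor of the BMAL1 pair, at 6.44 ± 1.82 and 4.62 ± 1.17 CPM (edgeR adjusted p = 0.282). Hlf, the remaining PAR bZIP gene, was barely counted, at 0.42 ± 0.37 and 0.40 ± 0.26 CPM.

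**Figure D5:**
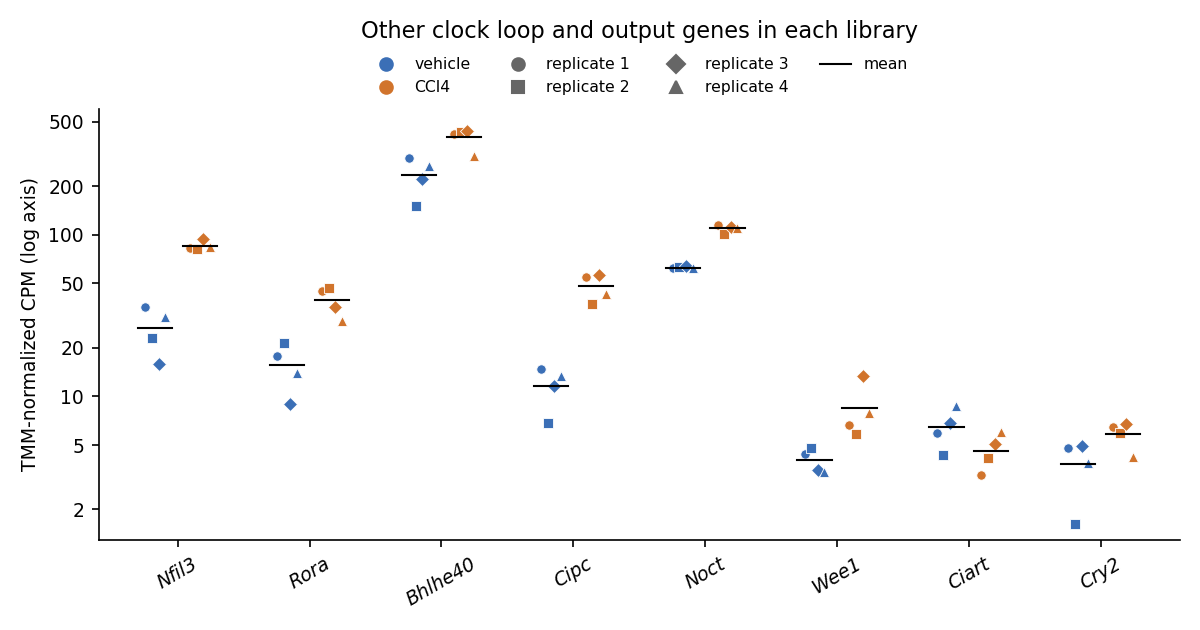
Level of other clock loop and output genes in every library, as TMM-normalized CPM on a log axis, with vehicle in blue, CCl4 in orange and a bar at the group mean. Nfil3, Rora, Bhlhe40, Cipc, Noct and Wee1 are apart between groups, whereas Ciart and Cry2 overlap.

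Of 15 genes listed as clock outputs 7 rose and 0 fell, with a median of 0.59, beside 8.93% and 6.26% of all genes. Noct, a rhythmic phosphatase once described as a deadenylase, held nearly 1 level in vehicle (62.03, 62.88, 63.88 and 61.94 CPM) and another in CCl4 (114.39, 101.85, 111.04 and 110.87 CPM). Its log2 fold change was 0.81 (SE 0.12, edgeR adjusted p = 0.000861). Dtx4 (log2 1.17), Tspo (0.84), Pnpla2 (0.84), Cdkn1a (0.97) and the mitotic kinase gene Wee1 (1.07, edgeR adjusted p = 0.0243) also rose. Wee1 no longer passed without vehicle 3 (edgeR adjusted p = 0.069), vehicle 4 (0.0695) or CCl4 3 (0.0727). Many of these outputs have other inputs: Cdkn1a, for instance, is also a p53 target. A further list, of 16 clock protein modifiers, had 1 gene higher and 0 lower, with a median log2 fold change of 0.09. All these lists were chosen with earlier results of these data known.

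Of 10 macrophage genes known as targets of REV-ERB repression, 2 rose and 2 fell (edgeR), beside 8.93% and 6.26% of all genes, with a median log2 fold change of -0.07. Ccr2 (log2 2.18) and Cx3cr1 (1.05), receptors of monocyte-derived cells and themselves in the marker list given above, were higher. Il6 (-2.85) and Ccl2 (-2.37), a cytokine and a chemokine, were lower. The list thus did not move in 1 direction. Ccr2 and Cx3cr1 count in both lists, so their rise is not a separate observation from that of the monocyte-derived markers.

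Genes of signals that reset the clock were counted in 3 more lists, again beside 8.93% of all genes higher and 6.26% lower. Among 10 glucocorticoid-induced genes, which include Per1, Errfi1 rose (log2 1.82) and Cebpd fell (-1.26), with a median of 0.54. The remaining 8 did not pass the test. Among 12 immediate early and cAMP-response genes, Sik1 (1.35) and Egr2 (1.25) rose and Ier2 (-1.51) and Egr1 (-1.50) fell (edgeR), with a median of -0.34. Of 8 heat shock genes 1 fell, Dnajb1 (-1.65), and 0 rose (edgeR). The estimates of all 8 were negative, with a median of -0.69. Some genes stand in more than 1 list: Dusp1, Klf9, Tsc22d3, Usp2, Per1, Ccr2 and Cx3cr1.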

How the data were processed

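Per the labels' protocols, RNA of sorted cells was amplified with SMART-Seq HT and made into libraries with NEBNext Ultra II. No strand-marking step is named. The submitters' processing notes name kallisto, edgeR, limma and mm10, without versions. The authors deposited kallisto estimated counts (expected counts, not normalized between samples) and TPM (scaled within a sample) per transcript, and a table of FPKM per gene whose making was not given in the sources used here.

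Estimated counts were summed per gene with GENCODE M21 (116405 of 117494 transcripts matched, without version suffixes) and rounded. Genes passing edgeR's filterByExpr (minimum count 10, minimum total 15) were tested with edgeR 4.0.16's quasi-likelihood test in R 4.3.3, with TMM scaling, two-sided, Benjamini-Hochberg adjusted over all 15212 genes at 0.05. The SE is the fold change divided by the root of the F statistic. Alternatives used DESeq2 1.42.0 and limma 3.58.1. Relations across libraries were tested by exact permutation within groups. Listed genes were named when past the threshold, at most 6 a list by adjusted p, with Thra, Cry2, Npas2, Nfil3, Ciart and Hlf whatever their values. Sphk2, the FPKM members and single transcripts were described after their values were seen. The clock genes and the lists were chosen with earlier results of these data known. Some results of the named-gene rule are not reported here.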

Additional observations from a re-analysis of the deposited data

Results flagged for a closer look

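In 76 groups of 4 libraries (38 named genes in 2 groups), chance alone would set a library this far from its group in about 1 of 20 groups. No explanation was weighed for the values that follow. For clock genes, vehicle 2 stood apart for Nr1d2 (17.18 CPM, the others 27.85 to 29.43), Tef (8.03, the others 14.90 to 16.18) and Per3 (7.25, the others 4.57 to 4.75). CCl4 4 stood apart for Per3 (5.47 CPM, the others 3.26 to 3.43) and CCl4 1 for Cry1 (19.47 CPM, the others 11.32 to 12.36). Among other genes, CCl4 4 was low for Bhlhe40 (309.49 CPM, the others 419.25 to 437.69) and Tspo (140.26, the others 185.10 to 190.18). Vehicle 4 was high for Cx3cr1 (161.18 CPM, the others 107.70 to 111.54), and CCl4 1 for Npas2 (1.76 CPM, the others 0.47 to 0.62).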

How the results depend on the processing

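Of the 10 clock genes 6 kept their direction under all 22 alternatives tried (Arntl, Nr1d2, Per1, Cry1, Dbp and Tef). Reversed values were -0.03 for Clock (most abundant transcript), 0.02 for Nr1d1 (without vehicle 1; leaving out a library gave -0.35 to 0.02), -0.17 and -0.03 for Per2 (FPKM, pseudocounts 0.1 and 1) and 0.77 for Per3 (protein-coding transcripts only, an alternative chosen after seeing the data). Hlf turned to 0.14, 0.57, 0.15 and 0.25 without vehicle 1, vehicle 2, CCl4 1 and CCl4 3 (-0.48 to 0.57 over all libraries left out), to 0.05 with the replicate block, to 0.08 and 0.01 in FPKM and to 0.21 in TPM. The number of clock genes called higher was 2 without the low-count filter, 1 with DESeq2, 1 with protein-coding transcripts only and 0 to 1 when a library was left out. Those settings called 1445 of 28917 tested genes higher (no filter), 1788 of 15212 (DESeq2) and 1359 of 13758 (protein-coding transcripts). Over all genes, 1358 higher and 953 lower calls became 375 and 319 in FPKM (335 and 315 with pseudocount 1), and 1004 to 1511 and 581 to 1164 when a library was left out. Scaling by library size alone gave 1082 higher and 1431 lower (43.1% of calls higher, beside 58.8%) and moved the median of all genes to -0.16, and upper-quartile scaling gave 47.5%. Per1 and Cry1 had passed only in the settings named, and Cry1 also with the replicate number as a block (0.79, edgeR adjusted p = 0.039). That block made 1 clock gene pass (Cry1) and 1281 higher and 829 lower calls over all genes. Samples with the same number did not deviate together (r -0.05, -0.28, -0.14 and -0.25 over 2000 genes). No library correlated best with its own number, so the numbers were not taken to pair the samples. Of the Arntl pairs, 0 passed in place of 1 with library size only, in FPKM, without vehicle 2 and CCl4 4, without the 2 libraries farthest out in Arntl, and with any single library left out. With 7 or fewer libraries a single pair cannot pass alone. Its smallest exact permutation p, 0.0069 with 7 libraries, adjusts over 9 pairs to 0.0625. The cause of the other changes was not tested. In FPKM, Cipc, Bhlhe40, Tspo, Pnpla2, Cdkn1a, Wee1, Cx3cr1, Egr1, Egr2 and Sik1 kept their direction without passing (limma), and with the block Bhlhe40 (edgeR adjusted p = 0.0506) and Wee1 (0.0691) no longer passed. Nor did Bhlhe40 (0.0538) and Sik1 (0.0595) with length-scaled TPM counts (edgeR), or Wee1 (0.0611) and Sik1 (0.0628) with limma on TPM. Dbp, Per2, Per3 and Hlf are limited by depth.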

Other observations

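Across the 8 libraries, genes with deviations from the group mean like those of Arntl were sought among 8002 genes at a mean of at least 10 CPM, and Usp1 (Pearson's r 0.94), Ssr3 (0.90), Ncbp1 (0.90) and Pdia6 (0.87) were among the 5 most alike. None of them is a gene of the clock lists. For Dbp the 5 most alike were Ddx51 (0.95), Nf1 (0.93), Bdp1 (0.93), Slc10a7 (0.92) and Tfdp2 (0.90). Among clock genes, Per3 (0.67) and Per1 (0.51) stood closest to Dbp. With 8 libraries and this many genes such values are descriptions of these libraries, without a test.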
